A study of Mus musculus with 4 samples.

Results

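The genes described here carry peptides onto MHC class I molecules. They are 10 of the 21878 genes in the deposited count table: the immunoproteasome subunits Psmb8, Psmb9 and Psmb10, the peptide transporter genes Tap1 and Tap2, the peptidase gene Erap1, the loading factors Tapbp and Tapbpl, the light chain gene B2m and the regulator Nlrc5. They were picked by name as genes of peptide production, transport and loading without near-identical copies. No cut on measured values was used in picking them, but earlier results of these data were known. All 10 passed edgeR's filter on low counts, with at least 1844 counts in every library.

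Bone marrow-derived macrophages of C57BL/6 mice, 8 weeks old in the labels, were cocultured with MC38, a mouse colon cancer cell line kept apart from them by a porous insert. The labels give 48 h of coculture, while a figure legend of the study gives a shorter time. Of the 4 libraries, 2 came from wild type mice (WT) and 2 from mice with a macrophage-specific knockdown of Act1 (anti-Act1), the adaptor protein of the IL-17 receptor. All macrophages had the same exposure to tumour cells, so no library shows macrophages cultured alone, and the promoter that drives the knockdown is not given in the sources used here. The labels do not say whether the libraries of a group came from separate mice. The p-values measure only the spread between these libraries, which edgeR pools in part over genes.

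The transcript of the targeted gene, Traf3ip2, measured 6.98 and 7.54 CPM in the WT-labelled libraries, and 9.63 and 7.84 CPM in the anti-Act1-labelled ones (adjusted p 0.117 by edgeR), where CPM are counts scaled to library size with TMM. It was thus not lower in the anti-Act1-labelled libraries, and every direction below rests on the labels. Ddx3y, on the Y chromosome, was at 88.9 and 97.0 CPM in the WT-labelled libraries and had 0 counts in both others, so that the sex of the mice and the genotype label cannot be told apart. The 8 macrophage markers summed to 24573 to 25554 CPM in the WT-labelled libraries and to 25418 to 26257 CPM in the anti-Act1-labelled ones. Most of each sum was Lyz2, at 16811 and 15811 against 17135 and 17736 CPM. Lyz2 and Cd14 had log2 fold changes of 0.10 and 0.16. Those of Adgre1, Csf1r, Cd68, Fcgr1, Itgam and Mertk were -0.11, -0.07, -0.03, -0.09, -0.31 and -0.40. By edgeR, Cd14 was higher and Itgam and Mertk lower at an adjusted p under 0.05, which 20.7% of all genes tested passed. The 6 epithelial markers summed to 0.343 to 0.464 and 0.128 to 0.389 CPM, with Krt8 and Krt18 at 0 counts in every library, and the 6 T and NK cell markers to 0.329 to 0.464 and 0.194 to 0.440 CPM. The summed markers of B cells were at 2.91 to 3.18 and 3.69 to 3.99 CPM, of neutrophils at 5.67 to 5.76 and 6.15 to 6.93 CPM, of dendritic cells at 2.25 to 2.96 and 1.80 to 2.22 CPM, and of fibroblasts at 0.158 to 0.325 and 0.130 to 0.366 CPM. Of these, S100a8 was higher and S100a9 lower, and the part of these markers in the results was not tested.

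MHC class I molecules show fragments of a cell's own proteins to CD8+ T cells. The proteasome cuts proteins into peptides, the transporter TAP moves them into the endoplasmic reticulum, Erap1 trims them, and tapasin (the product of Tapbp) holds an empty class I molecule next to TAP until a peptide fits. Interferons are known to raise most of these genes, in part through IRF factors, and Nlrc5 is known to bind class I promoters through a module that includes the X2 box and the Y box.

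The stretches printed here run from 250 bases before to 30 bases after the first base of a gene, since genes that moved together were compared for short motifs in this window, and Erap1 is shown as a gene that did not pass the test. RefSeq (GRCm38.p6) gave a window for 7 of the 10 genes. Capitals mark matches on either strand to the ISRE core GAAANNGAA, the GAS letters TTCNNNGAA, the NF-kB core GGANTTTCC, the X2 box core TGACG and the Y box CCAAT, and the lines are in the sense of the gene.
Tap1 (chr17:34187306-34187585, + strand): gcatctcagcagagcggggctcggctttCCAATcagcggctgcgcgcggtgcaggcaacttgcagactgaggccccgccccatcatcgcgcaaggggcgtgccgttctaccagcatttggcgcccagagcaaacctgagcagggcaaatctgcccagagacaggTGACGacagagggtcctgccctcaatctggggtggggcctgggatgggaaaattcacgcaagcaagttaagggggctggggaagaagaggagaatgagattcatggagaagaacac
Psmb8 (chr17:34197945-34198224, + strand): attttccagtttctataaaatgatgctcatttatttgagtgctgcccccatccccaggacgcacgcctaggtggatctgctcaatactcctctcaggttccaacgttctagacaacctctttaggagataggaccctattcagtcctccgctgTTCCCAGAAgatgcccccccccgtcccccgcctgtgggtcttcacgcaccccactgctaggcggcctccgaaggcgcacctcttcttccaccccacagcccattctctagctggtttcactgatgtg
Tapbp (chr17:33919228-33919507, + strand): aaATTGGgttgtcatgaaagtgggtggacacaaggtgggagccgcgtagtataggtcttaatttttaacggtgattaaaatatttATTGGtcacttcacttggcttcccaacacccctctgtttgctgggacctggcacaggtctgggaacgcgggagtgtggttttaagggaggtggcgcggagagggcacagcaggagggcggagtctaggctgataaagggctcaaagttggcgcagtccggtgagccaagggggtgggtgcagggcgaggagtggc
B2m (chr2:122147437-122147716, + strand): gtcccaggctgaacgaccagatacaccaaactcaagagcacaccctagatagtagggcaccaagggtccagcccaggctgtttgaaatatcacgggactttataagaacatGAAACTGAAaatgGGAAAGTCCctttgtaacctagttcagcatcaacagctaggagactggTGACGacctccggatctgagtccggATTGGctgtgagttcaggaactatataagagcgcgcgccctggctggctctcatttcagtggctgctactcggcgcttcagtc
Erap1 (chr13:74639603-74639882, + strand): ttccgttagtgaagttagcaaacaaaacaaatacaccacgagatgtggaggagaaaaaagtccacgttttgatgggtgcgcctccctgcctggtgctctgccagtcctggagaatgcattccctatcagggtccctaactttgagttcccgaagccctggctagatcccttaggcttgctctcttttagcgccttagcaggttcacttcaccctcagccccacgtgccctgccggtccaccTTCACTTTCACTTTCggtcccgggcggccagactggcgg

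B2m was the gene with the most motifs in its window, and no other window of the 7 held an NF-kB core. Counting the first base of the gene as 0, its ISRE core began at -139, its NF-kB core at -126, an X2 box core at -78 (a further X2 box core, at 44, lay past the printed stretch) and a Y box at -53. Tap1 and Psmb9 are read in opposite directions from starts that lie 226 bases apart, so that 275 of the 300 bases of their windows are the same DNA. One X2 box core and 1 Y box therefore stood in both windows, the X2 box core at -86 from the start of Tap1. Psmb8 held the GAS letters at -97, Tapbp held 2 Y boxes and Psmb10 held none of the 5 motifs. Erap1 held 2 overlapping ISRE cores, at -9 and -3; no other matches within a window shared bases. Over all 32851 RefSeq windows of 300 bases, 8.56% held the ISRE core, 8.30% the GAS letters, 1.25% the NF-kB core, 20.8% the X2 box core and 37.4% the Y box. These are matches of letters, and no binding was measured.

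B2m had by far the most transcript per length. In FPKM, the deposited values scaled to gene length and library size, it had the highest mean over the 4 libraries, 5736, which placed it at rank 7 among all tested genes with an FPKM, and it took 0.437% to 0.551% of all counts of a library. Tapbp followed at a mean of 219.8 FPKM and Psmb8 at 144 FPKM. Psmb9 (67.9), Tap1 (63.9), Psmb10 (51.1) and Tap2 (47.2 FPKM) were next, and here the values over the 4 libraries overlapped between Psmb9 and Tap1 and between Psmb10 and Tap2. Erap1 was at a mean of 24.7 FPKM, Tapbpl at 15.7 and Nlrc5 at 7.505 FPKM, near the middle of all tested genes (percentile 46.9). No other neighbours in this order overlapped.

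**Figure D1:**
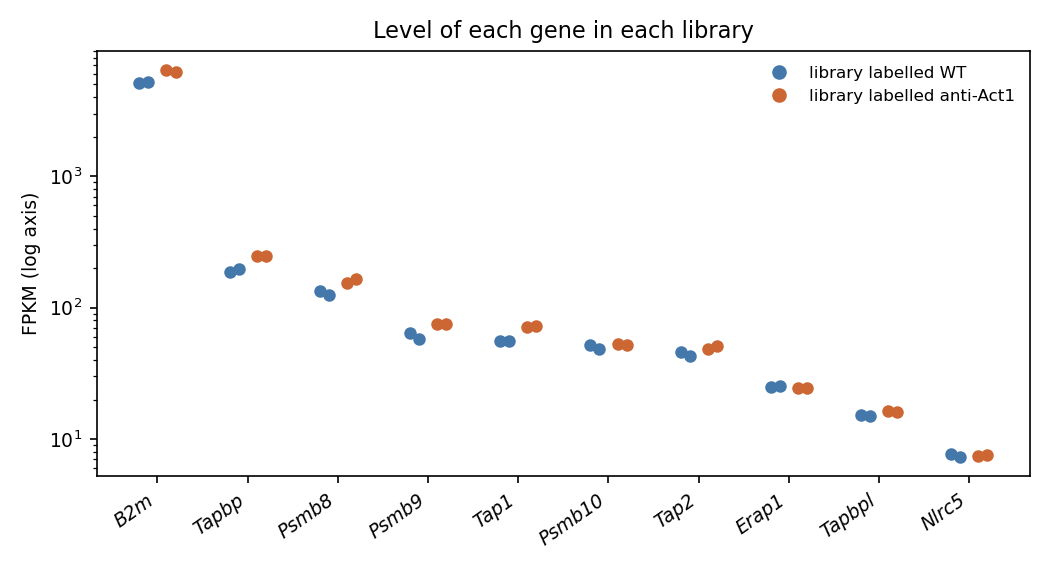
Level of each gene in FPKM on a log axis, with 1 point for each of the 4 libraries and genes in order of their mean. B2m lies between 5093 and 6427 FPKM, Nlrc5 between 7.33 and 7.65 FPKM, and the points of the groups do not overlap for B2m, Tapbp, Psmb8, Psmb9, Tap1, Tap2 and Tapbpl, where the anti-Act1-labelled libraries are above, and for Erap1, where they are below.

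Of the 10 genes, 6 were higher in the anti-Act1-labelled libraries by edgeR, at an adjusted p under 0.05 (Psmb8, Psmb9, Tap1, Tap2, Tapbp and B2m), 0 were lower and 4 did not pass (Psmb10, Erap1, Tapbpl and Nlrc5). Over all 12494 genes tested, 20.7% passed this threshold, 10.9% of all as higher and 9.76% as lower. Without anti-Act1 replicate 1, 1712 of 12809 genes and 6 of the 10 passed, and without anti-Act1 replicate 2, 1671 of 12827 genes and 5 of the 10. For the 10 genes the median log2 change was 0.25, against -0.0046 over all genes tested, and the largest was 0.38. The differences were small: the 6 genes rose by 14.1% to 30.5%. In CPM, both anti-Act1-labelled libraries lay above both WT-labelled ones for 8 of the 10 genes, where 28.4% of all genes tested did so. In bulk RNA, more transcript per cell and more cells with the transcript cannot be told apart.

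**Figure D2:**
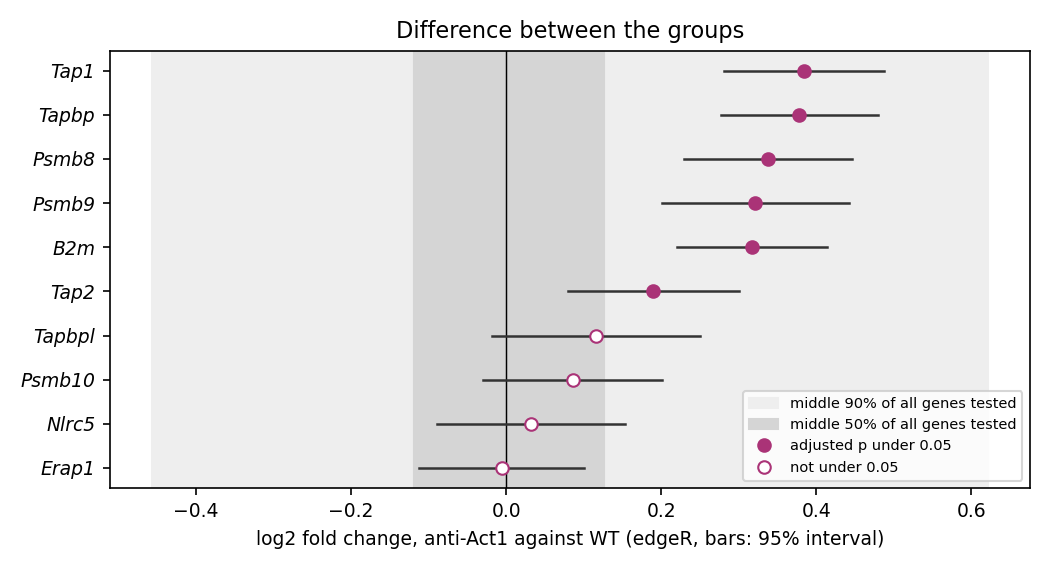
Log2 fold change of each gene in the anti-Act1-labelled libraries against the WT-labelled ones, from edgeR, with 95% intervals; filled points passed an adjusted p of 0.05, and shaded bands hold the middle 50% and 90% of all genes tested. The 6 filled points lie between 0.19 and 0.38, and the intervals of the 4 open points include 0.

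Of the 3 inducible catalytic subunits of the proteasome, Psmb8 and Psmb9 passed and Psmb10 did not. Psmb8, the chymotrypsin-like subunit, measured 162 and 151 CPM in the WT-labelled libraries, and 189 and 206 CPM in the anti-Act1-labelled ones. Both libraries of the latter were above both of the former, and the log2 fold change was 0.34 with an SE of 0.05 (adjusted p 3.14e-06 by edgeR). Psmb9, which faces Tap1 across the shared stretch printed above, was at 56.5 and 51.4 CPM against 67.2 and 67.6 CPM, a log2 fold change of 0.32 with an SE of 0.06 (adjusted p 4.70e-05 by edgeR). Its anti-Act1-labelled libraries were nearly equal, and both were above the others.

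Psmb10, the inducible trypsin-like subunit, was at 71.1 and 66.2 CPM against 73.0 and 72.6 CPM. The groups did not overlap in CPM but did in FPKM, and the log2 fold change of 0.09 (95% interval -0.03 to 0.20, adjusted p 0.328 by edgeR) did not pass. Leaving out WT replicate 1 gave 0.14 and leaving out replicate 2 of that group 0.03, and neither fit passed. Within a library, where scaling has no part, the FPKM ratio of Psmb8 to Psmb10 was 2.57 and 2.58 in the WT-labelled libraries and 2.92 and 3.21 in the anti-Act1-labelled ones. The ratio of Psmb9 to Psmb10 was 1.23 and 1.204 against 1.43 and 1.44. Neither ratio overlapped between groups, and an exact permutation test gave p = 0.33 for each, the smallest that 2 libraries against 2 allow. Both ratios were added after their values were seen, and they restate the fold changes given above.

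Each inducible subunit takes the place of a constitutive one when new proteasomes are built, Psmb8 that of Psmb5, Psmb9 that of Psmb6 and Psmb10 that of Psmb7. Psmb5 itself was higher, at 78.3 and 71.1 CPM against 90.5 and 84.5 CPM (a log2 change of 0.23 with an SE of 0.06 and, by edgeR, an adjusted p of 0.00275). The FPKM ratio of Psmb8 to Psmb5 was 1.47 and 1.51 in the WT-labelled libraries and 1.49 and 1.74 in the anti-Act1-labelled ones, so that the groups overlapped (exact permutation p = 0.667). The log2 difference of this ratio, 0.11, was -0.0031 without anti-Act1 replicate 2.

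The ratio of Psmb9 to Psmb6 was 0.394 and 0.393 against 0.435 and 0.464, a log2 difference of 0.19 without overlap (exact permutation p = 0.33). Psmb6 had a log2 fold change of 0.13 (adjusted p 0.0827 by edgeR). The ratio of Psmb10 to Psmb7 was 0.653 and 0.645 against 0.657 and 0.667, a log2 difference of 0.03 (exact permutation p = 0.33). By FPKM there was thus more transcript of Psmb8 than of Psmb5 in every library, and less of Psmb9 and Psmb10 than of their counterparts.

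**Figure D3:**
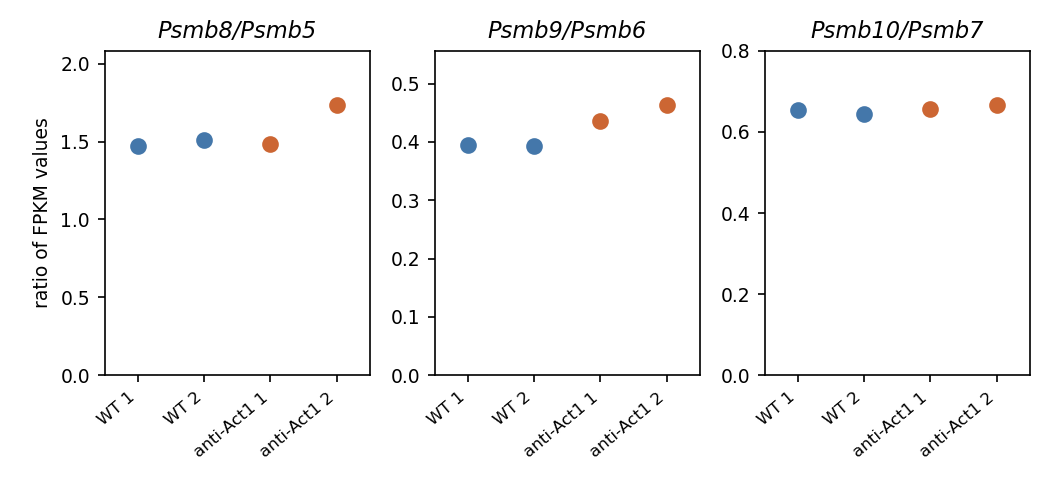
Ratio of the FPKM of each inducible proteasome subunit to that of the constitutive subunit it replaces, in each of the 4 libraries, on linear axes from 0. Psmb9 to Psmb6 goes from 0.394 and 0.393 to 0.435 and 0.464, Psmb10 to Psmb7 stays between 0.645 and 0.667, and for Psmb8 to Psmb5 1 anti-Act1-labelled library, at 1.74, lies above the other 3.

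Both chains of the TAP transporter were higher in the anti-Act1-labelled libraries. Tap1 measured 162 and 160.4 CPM in the WT-labelled libraries, and 206 and 215 CPM in the anti-Act1-labelled ones, the largest log2 fold change of the 10 genes (0.38 with an SE of 0.05, adjusted p 7.60e-08 by edgeR). The spread within each group was small beside the distance between them. Tap2 was at 114 and 105 CPM against 121 and 129.5 CPM, a log2 fold change of 0.19 with an SE of 0.05 (adjusted p 0.00902 by edgeR). The 2 groups did not overlap, but the spread within each was of a size with the gap.

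The call of Tap2 was lost in 5 of 13 alternatives. It had an edgeR adjusted p of 0.142 without WT replicate 2 and of 0.239 without anti-Act1 replicate 2, and adjusted p-values of 0.0666, 0.0672 and 0.156 with limma on FPKM. The FPKM ratio of Tap1 to Tap2, whose products form 1 transporter as a pair, was 1.22 and 1.30 in the WT-labelled libraries and 1.46 and 1.42 in the anti-Act1-labelled ones (exact permutation p = 0.33, the smallest possible). This ratio was also added after its values were seen.

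Erap1, which trims the front end of peptides in the endoplasmic reticulum, did not pass. It measured 110.7 and 111.8 CPM in the WT-labelled libraries, and 110.7 and 110.9 CPM in the anti-Act1-labelled ones. The values overlapped in CPM. In FPKM they did not, at 24.8 and 25.2 against 24.6 and 24.3, with the anti-Act1-labelled libraries below. FPKM lack the TMM scaling. Without TMM, edgeR gave a log2 fold change of -0.03 for Erap1 and a median of -0.03 over all genes tested. With TMM, the log2 fold change of -0.0060 had a 95% interval of -0.11 to 0.10 (adjusted p 0.960 by edgeR). The point estimates of the 6 genes that passed lie outside this interval, but the interval of Tap2, 0.08 to 0.30, overlaps it.

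Tapbp, the gene of tapasin, measured 514 and 538 CPM in the WT-labelled libraries, and 676 and 691 CPM in the anti-Act1-labelled ones. The groups lay well apart, and the log2 fold change was 0.38 with an SE of 0.05 (adjusted p 6.19e-08 by edgeR). Tapbpl encodes a related protein that exchanges peptides on class I molecules away from TAP, and it was at 31.8 and 30.9 CPM against 34.2 and 33.8 CPM. Its log2 fold change was 0.12 (95% interval -0.02 to 0.25, adjusted p 0.243 by edgeR). The FPKM ratio of Tapbp to Tapbpl was 12.2 and 13.2 in the WT-labelled libraries and 15.0 and 15.5 in the anti-Act1-labelled ones, without overlap (exact permutation p = 0.33). It too was a ratio added after its values were seen.

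B2m, the light chain that every class I molecule needs to reach the cell surface, measured 4342 and 4431 CPM in the WT-labelled libraries, and 5529 and 5404 CPM in the anti-Act1-labelled ones. The groups did not overlap, and the log2 fold change was 0.32 with an SE of 0.05 (adjusted p 1.08e-06 by edgeR). Its call was lost where limma was run on log2(FPKM + 1) with low values kept, at an adjusted p of 0.331 and a log2 fold change of 0.29. The heavy chains H2-K1 and H2-D1, which pair with B2m, had log2 fold changes of 0.41 and 0.27 (adjusted p 7.39e-09 and 4.01e-05 by edgeR), but reads of these genes could have been split with their near-identical copies.

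Nlrc5, the transactivator of class I genes, measured 55.7 and 53.1 CPM in the WT-labelled libraries, and 54.5 and 56.8 CPM in the anti-Act1-labelled ones. The groups overlapped, and the log2 fold change was 0.03 (95% interval -0.09 to 0.15, adjusted p 0.771 by edgeR). This interval lies below the point estimate of each of the 6 genes that passed, the smallest being that of Tap2. The 95% interval of Tap2, 0.08 to 0.30, overlaps that of Nlrc5.

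The 5 genes of the list on chromosome 17, where the mouse MHC lies, all passed, whereas 1 of the 5 on other chromosomes (B2m, on chromosome 2) did. This split was not among the planned comparisons, and no test was run on it. It includes Tap2, whose call depended on the setting. Tapbpl is on chromosome 6, Nlrc5 and Psmb10 on chromosome 8 and Erap1 on chromosome 13. Of all 630 tested genes matched to chromosome 17, 21.0% passed in either direction, near the 20.9% of all matched genes. Psmb9, Tap1, Psmb8 and Tap2 follow each other without another tested gene between them. Of the 5 nearest tested genes on each side, the class II genes H2-Ab1 and H2-Eb1 were higher, with log2 fold changes of 0.34 and 0.19, 0 were lower, and the median was 0.03. The genes next to the block, H2-DMb1 and H2-Ob, had log2 fold changes of 0.04 and -0.12 (adjusted p 0.711 and 0.908 by edgeR).

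Around Tapbp, Ndufa7 was higher (0.19) and Rgl2, adjacent to Tapbp, lower (-0.16), and the median of the 10 neighbours was 0.06. In the GENCODE M21 gene models, 29.0% of the exon bases of Tapbp also belong to Zbtb22 or Gm19412, 18.5% of those of Tap2 and 14.7% of those of Psmb8 to antisense genes, 11.5% of those of Erap1 to Cast, and 3.87% and 5.79% of those of Tap1 and Psmb9 to each other. For Nlrc5 the share was 0.918%, and B2m, Tapbpl and Psmb10 shared none. Whether the counting used strand is not given in the sources used here, so reads in these shared bases are uncertain. Zbtb22 had a log2 fold change of 0.08 (adjusted p 0.448 by edgeR).

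**Figure D4:**
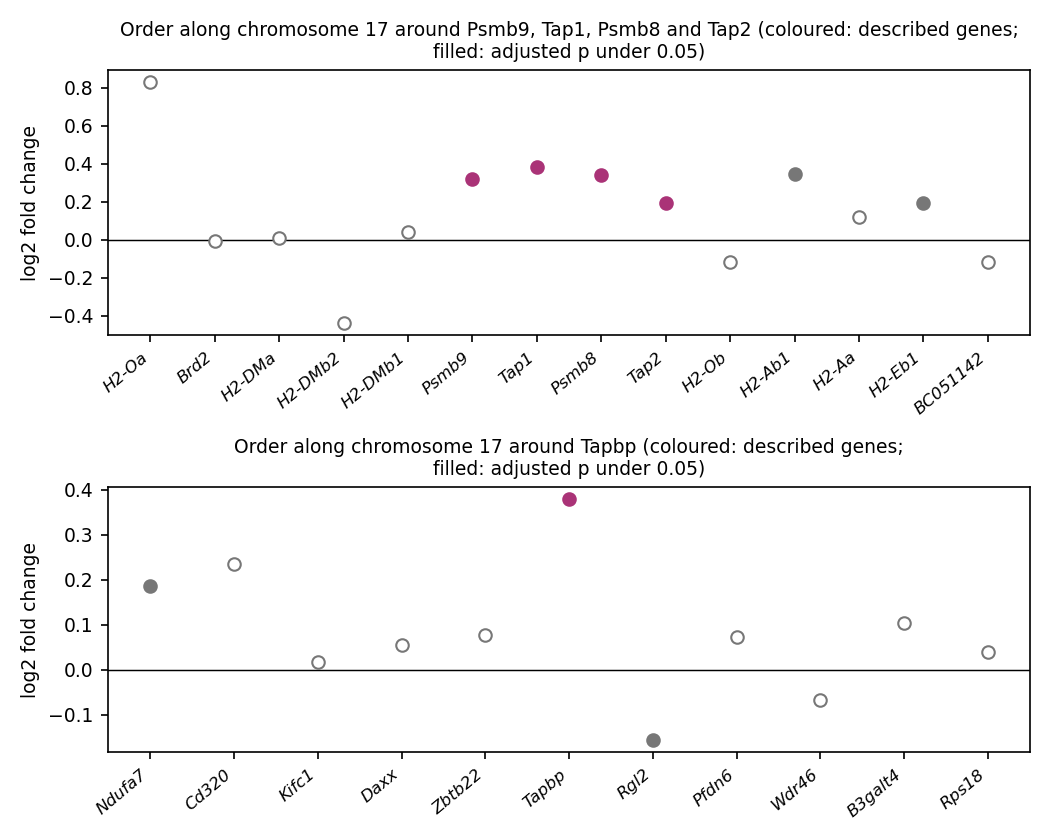
Log2 fold change in the anti-Act1-labelled libraries against the WT-labelled ones, in gene order along chromosome 17, for the block from Psmb9 to Tap2 and for Tapbp with the 5 nearest tested genes on each side; filled points passed an adjusted p of 0.05. The 4 genes of the block lie between 0.19 and 0.38, with open points on both flanks next to them.

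Among 47 other genes of the class I pathway, listed by role, 6 were higher and 5 lower in the anti-Act1-labelled libraries. This is 23.4% of them, against 20.7% of all genes tested, and their median log2 fold change was 0.03. Without anti-Act1 replicate 1, 4 of the 47 passed, and without anti-Act1 replicate 2, 7 did, in the same fits in which the calls over all genes fell to 1712 and 1671. Of 6 chaperones and loading partners of the endoplasmic reticulum, 1 was higher and 1 lower (33.3%, against 20.7% of all genes tested). The chaperones that stand beside tapasin in the loading complex did not pass. Calr, Canx and Pdia3 had log2 fold changes of -0.02, 0.02 and 0.01 (adjusted p 0.823, 0.851 and 0.896 by edgeR). Hspa5, a general chaperone of the endoplasmic reticulum, rose by a log2 fold change of 0.15 (adjusted p 0.0247 by edgeR). Uggt1, the enzyme that sends poorly loaded class I molecules back for another round, was at 126 and 135 CPM against 109.5 and 115 CPM and fell by 0.22 on the log2 scale (adjusted p 0.00213 by edgeR).

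Of 9 peptidases of the cytosol and endosomes, 0 were higher and 2 were lower (22.2%, against 20.7% of all genes tested). Tpp2, which cuts long peptides, measured 89.9 and 97.2 CPM in the WT-labelled libraries, and 82.3 and 74.4 CPM in the anti-Act1-labelled ones (a log2 change of -0.26 and, by edgeR, an adjusted p of 0.000766). Ide had a log2 fold change of -0.17 (adjusted p 0.0465 by edgeR). Of 12 genes of constitutive subunits, activators and assembly factors, 2 were higher, Psmb5 and Psme2, and 0 lower (16.7%, against the same 20.7%). Psme2, a chain of the PA28 activator that opens the proteasome, was at 86.3 and 74.1 CPM against 103 and 91.2 CPM (a log2 change of 0.28 and, by edgeR, an adjusted p of 0.000549). The other chain, Psme1, had a log2 fold change of 0.11 (adjusted p 0.125 by edgeR).

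Of 11 transcription factors of class I promoters, 2 were higher and 1 lower (27.3%, against 20.7% of all genes tested). Atf1 (0.27, adjusted p 0.000214 by edgeR) and Creb1 (-0.21, adjusted p 0.0107 by edgeR), related factors that bind X2 box letters, went opposite ways, and Rfxap, a subunit of the RFX complex, had a log2 fold change of 0.23 (adjusted p 0.0123 by edgeR). Irf1, which binds ISRE letters, was at 84.3 and 87.9 CPM against 94.1 and 93.9 CPM (a log2 change of 0.13 and, by edgeR, an adjusted p of 0.0972).

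Of 9 genes of interferon reception, 1 was higher and 1 lower (22.2%, against 20.7% of all genes tested). Ifnar2, a chain of the type I receptor, rose by a log2 fold change of 0.22 (adjusted p 0.00108 by edgeR), and Ifngr1, a chain of the interferon gamma receptor, fell by 0.15 on the log2 scale (adjusted p 0.0230 by edgeR). Ifng had 1 count in 1 WT-labelled library and 0 in the other 3 libraries. Genes of type I interferons were not among those listed here, and no interferon protein was measured.

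**Figure D5:**
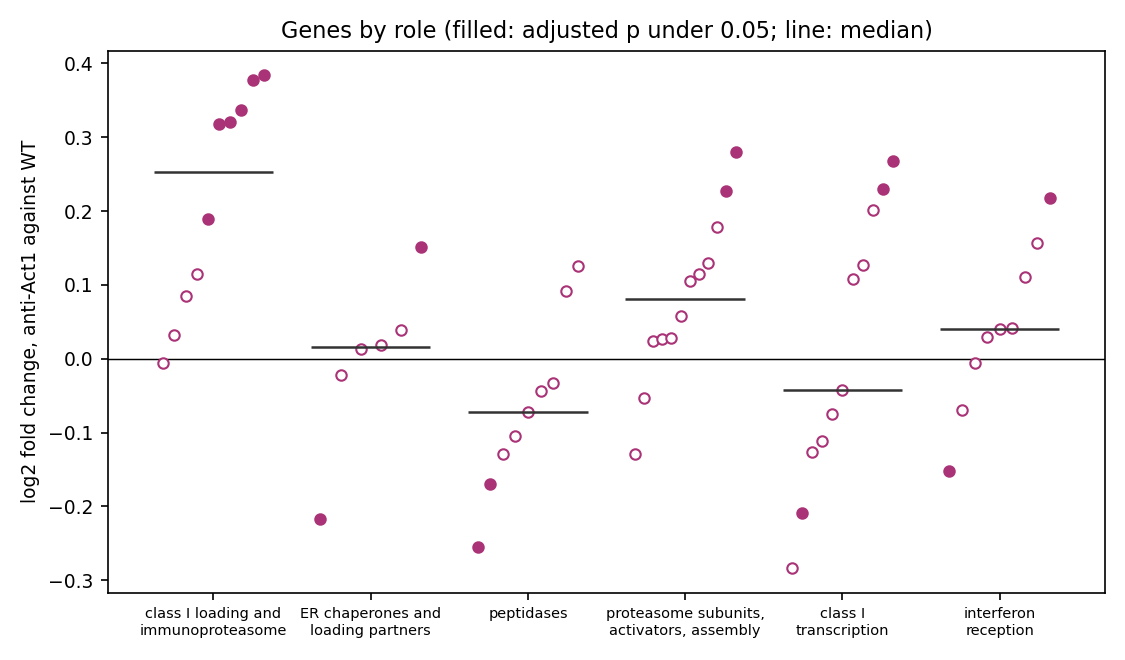
Log2 fold change of the 10 genes described and of the 47 other genes of the pathway by role, in the anti-Act1-labelled libraries against the WT-labelled ones; filled points passed an adjusted p of 0.05, and lines are medians. The median is 0.25 for the 10 genes and lies between -0.07 and 0.08 for the other 5 groups.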

How the data were processed

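Per the labels and methods of the study, RNA was made into libraries with the NEBNext Ultra kit and sequenced as read pairs. After removal of adapter-bearing, poly-N and poor reads, alignment was with TopHat on a Bowtie index. The submitters' processing notes name Bowtie 0.12.2, HTSeq 0.6.1 and the builds mm8 and mm10 without their roles, and the methods give a different Bowtie version for the index; the annotation is not given in the sources used here. The authors deposited whole counts per gene without normalization, and FPKM values made from the same counts.

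Counts were tested with edgeR 4.0.16 in R 4.3.3 (TMM, filterByExpr, group as the only term, two-sided quasi-likelihood F test, glmQLFit and glmQLFTest, Benjamini-Hochberg over the 12494 genes tested). Standard errors and 95% intervals come from that fit, which pools the spread of each gene in part with that of the others. CPM are scaled by TMM and were used within a gene, and FPKM between genes. Totals were 64199075 and 75062945 counts (libraries labelled WT) and 61926229 and 55435063 (labelled anti-Act1); replicates differed by more than sampling noise (chi-square per degree of freedom 10.8 and 7.45). Alternatives were DESeq2 1.42.0, its size factors, no composition normalization, no filter, a minimum of 10 counts, the replicate block, limma 3.58.1 on log2(FPKM + 1) or log2(FPKM + 0.1), and each library left out. The scripts were first tested on simulated data. The genes, lists and tests were chosen with earlier results of these data known. The ratios of Psmb8 and Psmb9 to Psmb10, of Tap1 to Tap2 and of Tapbp to Tapbpl were added after their values were seen. So were the neighbouring genes, and the split by chromosome was not among the planned comparisons. The genes named are the 10 described, every gene of the partner lists that passed, partners a result turns on and the heavy chains. Also named are Traf3ip2, Ddx3y, Ifng, neighbouring genes, the macrophage markers, and other marker genes that passed or were at 0. One result is not reported here, and the partner lists are given without it. Promoter windows are from RefSeq (GRCm38.p6), whose gene order also gave neighbours, with 11940 tested symbols matched.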

Additional observations from a re-analysis of the deposited data

How the results depend on the processing

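The number of the 10 genes that passed was 6 in the reported fit and 4 to 6 in 13 alternatives, with every called gene higher; over the fits without 1 library it was 5 to 6. Psmb8, Psmb9, Tap1 and Tapbp passed in all 13, B2m in 12 and Tap2 in 8, while Psmb10, Erap1, Tapbpl and Nlrc5 passed in 0. Of the 130 values of single genes under these alternatives, 122 kept direction and side of the threshold, 6 lost the call (Tap2 and B2m) and 2 changed sign near 0, both without WT replicate 2; over the fits without 1 library, Erap1 lay between -0.014 and 0.00074 and Nlrc5 between -0.0026 and 0.065. Where limma was run on log2(FPKM + 1) with low values kept, 1091 of all genes (2586 in the reported fit) and 1 of the 47 pathway partners (11 in the reported fit) passed, and 7 partners did with log2(FPKM + 0.1) and a filter; the cause was not tested. Leaving out 1 library gave 1671 to 2543 genes and 4 to 12 partners (4 without anti-Act1 replicate 1, 7 without anti-Act1 replicate 2), with 1671 and 1712 genes without anti-Act1 replicate 2 and replicate 1. With the replicate number as a block, 6 of the 10 genes, 8 partners and 2406 genes passed; deviations of libraries with the same number correlated at -0.03 across 12494 genes, so the numbers were not taken as pairs. Leaving out a library moved the log2 difference of the ratio of Psmb8 to Psmb5 between -0.0031 and 0.22, of Psmb9 to Psmb6 between 0.15 and 0.24, and of Psmb10 to Psmb7 between 0.018 and 0.039. Counting error is small at these depths. With 2 libraries a group, the SEs of edgeR rest largely on spread pooled over genes, and little on each gene's own replicates.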
